A study of Mus musculus with 6 samples.

Results

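The 36 transcripts described here are made mainly by hepatocytes, and they were followed by RNA sequencing through 6 preparations of primary hepatic stellate cells of the mouse. They were taken from the deposited count table by gene symbol, 36 of 22966 genes, with 23 secreted plasma proteins, 12 enzymes and the transcription factor Hnf4a. All 36 symbols were in the table. Of the 36, 32 passed a filter on low counts and could be tested, and Cyp2f2, Tat, Hpd and Gnmt did not.

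The series concerns butyrylcholinesterase in hepatocytes and its effect on stellate cells, the pericytes of the liver sinusoid that make collagen after injury. All 6 libraries carry the same genotype entry, BucheHep, and the same treatment entry, CCl4, a hepatotoxin used to cause liver fibrosis. The titles name 3 libraries flox and 3 libraries Cre, so they alone separate the groups, and the promoter driving Cre is not stated. The labels give no age or sex and do not say whether each library is another animal, and p-values therefore reflect the spread among these 6 samples, part of which may be technical. Bche itself reached 17, 6 and 21 counts in libraries flox 1, 2 and 3, with 15, 8 and 2 counts in Cre 1, 2 and 3, and since the series text places the knockout in hepatocytes, these counts are no check of the titles.

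Hepatocytes are the parenchymal cells of the liver. They secrete most plasma proteins, carry the urea cycle and break down drugs with cytochromes P450, and these tasks are divided along the lobule, with urea synthesis strongest near the portal vein and cytochromes strongest near the central vein. During inflammation hepatocytes make more of the positive acute-phase proteins, such as haptoglobin and fibrinogen, and less of the negative ones, such as albumin and transthyretin. CCl4 is turned into a toxic radical by cytochromes, mainly Cyp2e1, in the pericentral hepatocytes.

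Promoter windows are shown for 3 secreted members that stand for the patterns below: Alb, the most abundant plasma protein, Serpina1a, an inhibitor low in the Cre libraries, and Fgb, a fibrinogen chain that was high relative to Alb in them. Each line holds the 250 bases before the RefSeq start in GRCm38.p6, read 5′ to 3′ on the gene's strand. Capitals mark GTTAAT, the core of the site bound by the hepatocyte factor HNF1, or CTGGGAA, the core of the interleukin-6 response element, on either strand.
Alb: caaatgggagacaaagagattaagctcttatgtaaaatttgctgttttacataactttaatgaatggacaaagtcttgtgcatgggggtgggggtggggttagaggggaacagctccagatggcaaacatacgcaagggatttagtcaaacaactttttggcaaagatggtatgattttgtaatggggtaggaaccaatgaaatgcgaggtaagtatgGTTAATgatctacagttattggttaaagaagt
Serpina1a: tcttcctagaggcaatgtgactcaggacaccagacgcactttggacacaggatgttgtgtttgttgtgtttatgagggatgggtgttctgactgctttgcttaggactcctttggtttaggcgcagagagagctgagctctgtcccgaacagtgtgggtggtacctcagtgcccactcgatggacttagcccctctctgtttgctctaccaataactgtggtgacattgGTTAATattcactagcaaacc
Fgb: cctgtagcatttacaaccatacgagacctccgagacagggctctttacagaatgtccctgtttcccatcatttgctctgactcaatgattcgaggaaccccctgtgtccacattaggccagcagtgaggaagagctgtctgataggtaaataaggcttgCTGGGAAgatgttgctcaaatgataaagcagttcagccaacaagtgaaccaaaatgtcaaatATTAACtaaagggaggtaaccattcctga
The Alb window is chr5:90460620-90460869 on the plus strand, the Serpina1a window chr12:103863620-103863869 on the minus strand and the Fgb window chr3:83049864-83050113 on the minus strand. The RefSeq starts of Alb and Serpina1a lie 27 and 57 bases before the GENCODE gene starts, and that of Fgb is the same.

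RefSeq promoter windows were found for 26 of the 36 members, with 29 windows in all. GTTAAT, on either strand and counted apart from the other motifs, was in 6 of the 29 member windows, against 6.43% of all 32851 windows of this length. The 6 members were Alb, Fga, Fgb, Gc, Hnf4a and Serpina1a. CTGGGAA was in 3 of 29 windows, those of Fgb, Fgg and Gc, against 9.10% of all windows. The TATA box TATAAA was in 7 of 29, against 12.4%, and these were 4 cytochromes (Cyp1a2, Cyp2c29, Cyp2e1 and Cyp3a11), Apoa2, Apob and Rbp4. These are matches of letters and say nothing of factor binding.

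The libraries held 37273142 to 41006722 counts. Levels are given as CPM, counts scaled to a common library size, after TMM scaling, a correction for differences in RNA composition, and 3 counts correspond to 0.0724 to 0.0862 CPM. Every pair of libraries differed by more than counting noise, and flox 3 stood apart from flox 1 and 2 (Spearman correlation across genes 0.970 and 0.959, against 0.992 between flox 1 and 2). Stellate markers, 14 of 14 detected, summed to 1391 to 3174 CPM in flox and 2278 to 3699 CPM in Cre libraries, although Lrat, the retinol-esterifying enzyme of resting stellate cells, had only 5 to 95 counts. Kupffer cell and macrophage markers, 15 of 15 detected, summed to 8214 to 23021 CPM in flox and 2490 to 2965 CPM in Cre libraries. Fewer cells of a type and less RNA per cell cannot be told apart in such libraries.

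The hepatocyte transcripts together made up 0.0793%, 0.123% and 0.146% of the counts of flox 1, 2 and 3, compared with 0.108%, 0.0539% and 0.132% for Cre 1, 2 and 3. Arg1, Ass1, Hp, Trf and Rbp4, which are known also from other liver cells, hold much of this share. The other 31 members made up 0.0250%, 0.0433% and 0.101% in flox 1, 2 and 3. Their share was 0.0525%, 0.0127% and 0.0725% in Cre 1, 2 and 3. The flox and Cre ranges overlapped widely in both cases. Flox 3 was the highest library for 22 of the 36 members and the lowest for 0, while Cre 2 was the lowest for 26 and the highest for 0. Among all 14795 genes tested, flox 3 was highest for 13.6% and Cre 2 lowest for 19.0%.

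**Figure D1:**
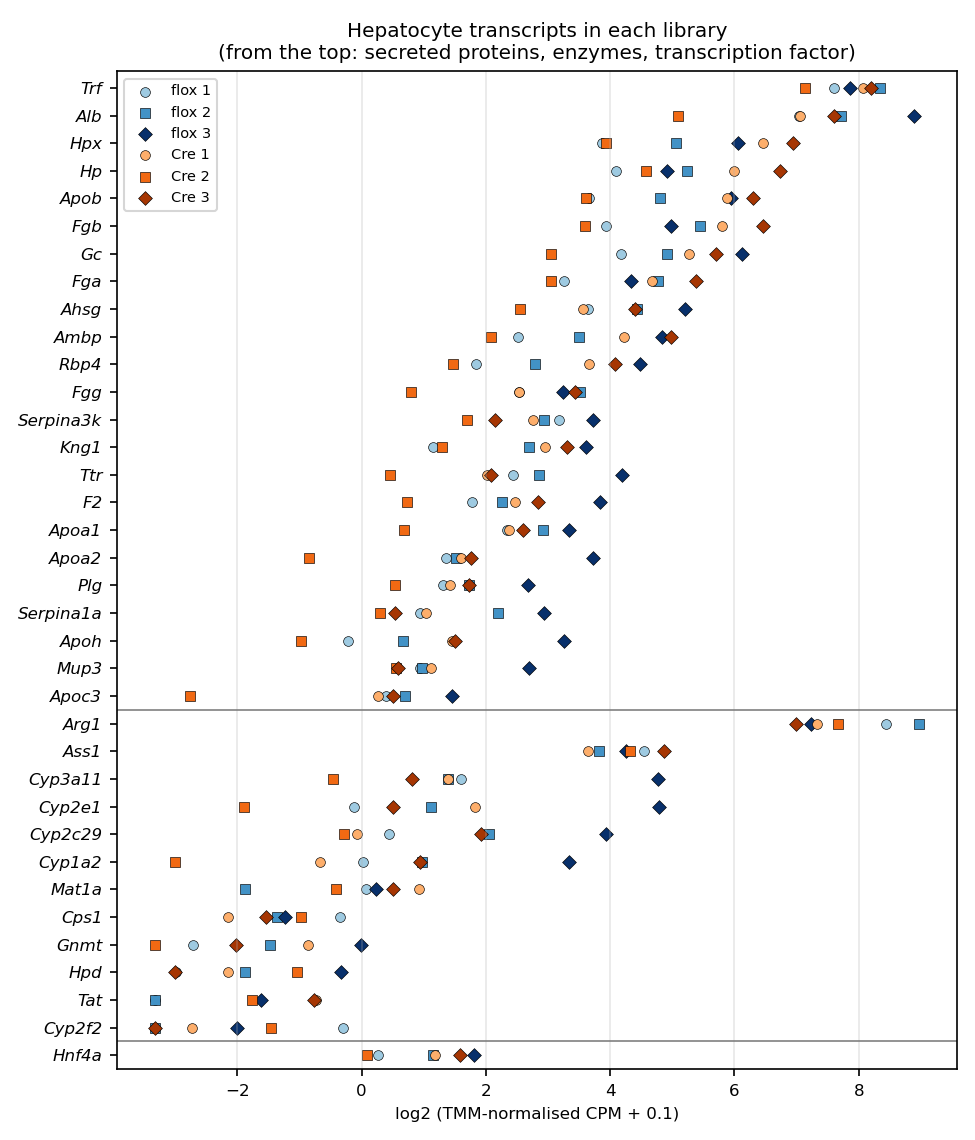
Level of each hepatocyte transcript in each library, as log2 of TMM-normalised CPM plus 0.1, with 1 point per library (blue flox, orange Cre). Flox 3 is the rightmost point for 22 of 36 genes and Cre 2 the leftmost for 26, and the 4 cytochromes Cyp3a11, Cyp2e1, Cyp2c29 and Cyp1a2 have flox 3 far to the right of the rest.

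No member passed the threshold between Cre and flox. In edgeR's quasi-likelihood test, with p-values adjusted by Benjamini-Hochberg over all genes and called below 0.05, 0 of the 32 tested members were higher and 0 lower in Cre libraries. Over all 14795 genes the same test called 15.3%, with 6.35% higher and 8.94% lower. At an unadjusted p below 0.05 there were 5 members (Ttr, Serpina1a, Serpina3k, Cyp3a11 and Arg1), all with lower values in Cre, against 34.8% of all genes. DESeq2 called 3 of 32, Ttr, Serpina1a and Serpina3k, all lower, against 29.3% of all genes, and limma-voom called 0, against 9.49%. Of the 32, 24 had negative and 8 positive log2 fold changes, with a median of -0.73 against 0.01 for all genes tested. Without flox 3 the median was -0.17, and without Cre 2 it was -0.42.

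Few members had groups that did not overlap. In 3 of the 32 tested members every Cre library lay below every flox library, against 20% of all genes, and in 0 members every Cre library lay above, against 19.6%. The 3 were Ttr, Serpina3k and Cyp3a11. For Cyp3a11 the margin was small, since flox 2 and Cre 1 both had 2.53 CPM at this rounding, and with library totals in place of TMM 1 member remained separate.

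**Figure D2:**
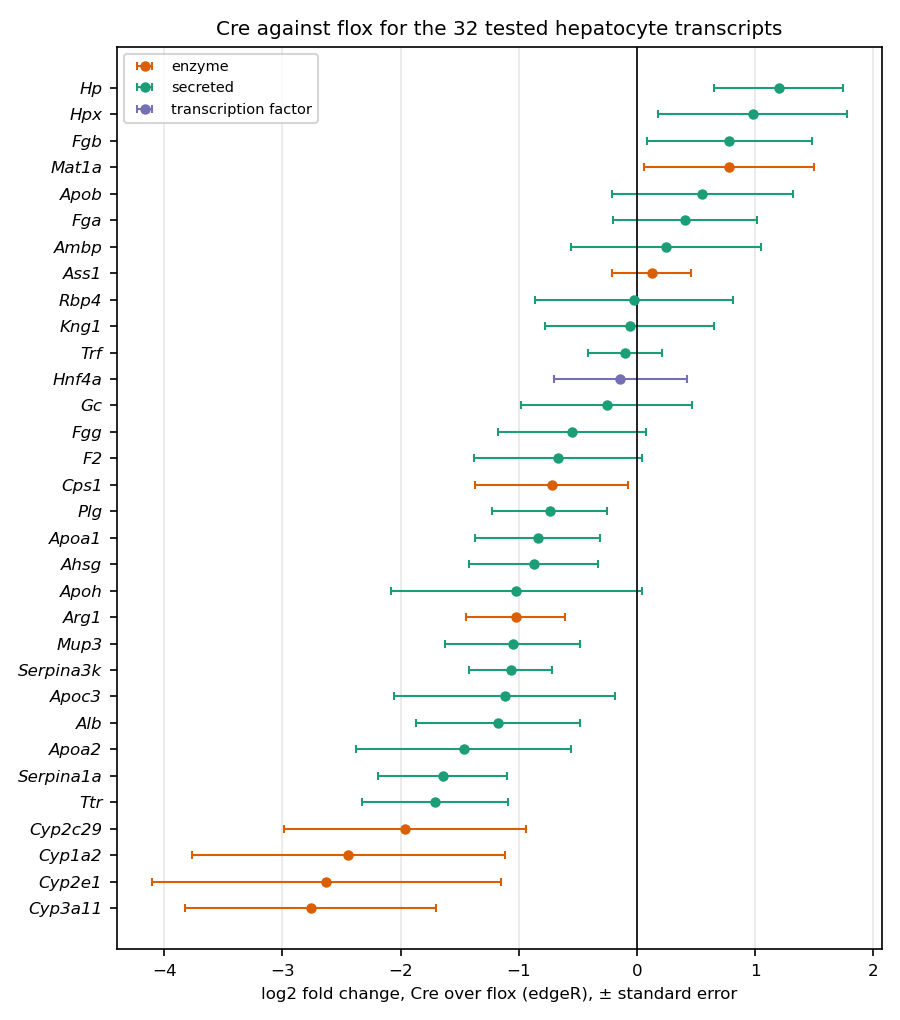
Log2 fold change of Cre over flox from edgeR for the 32 tested members, with bars of 1 standard error (3 libraries per group), coloured by class. The 4 cytochromes have the lowest values, from -2.76 to -1.96, Hp and Hpx the highest at 1.20 and 0.98, and none passed the threshold.

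Secreted proteins and enzymes differed in how their summed levels ordered the libraries, but only with Arg1 and Ass1 among the enzymes was flox 3 not the highest for both. The 23 secreted members, all tested, had a median log2 fold change of -0.66, with 17 negative and 6 positive. The 8 tested enzymes had a median of -1.49, with 6 negative and 2 positive, which is 0.83 below the secreted proteins, and this difference was not tested. Summed CPM of the secreted members was 475, 833 and 1196 for flox 1, 2 and 3, compared with 820.5, 282.5 and 1100 for Cre 1, 2 and 3. The enzymes summed to 377, 526 and 253 CPM in flox and 183, 226 and 167 CPM in Cre libraries. The enzyme sum was mostly Arg1 and Ass1. Without them the other 10 enzymes summed to 8.32, 11.4 and 83.3 CPM in flox and 10.4, 3.45 and 10.7 CPM in Cre libraries, so that flox 3 alone was high. Flox 3 was then highest and Cre 2 lowest, as for the secreted members.

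Albumin, the main carrier protein of plasma (Alb, chr5:90460897-90476602), had 4987, 7317 and 19081 counts for flox 1, 2 and 3, compared with 5295, 1415 and 7965 counts for Cre 1, 2 and 3. This is 131, 210.3 and 475 CPM in flox and 133, 34.2 and 195 CPM in Cre libraries. Flox 3 was highest and Cre 2 lowest, and flox 1 lay below both Cre 1 and Cre 3. The log2 fold change was -1.17 with a standard error of 0.70 (n = 3 libraries each, adjusted p = 0.275 by edgeR), within the spread of the libraries. It was -0.50 without flox 3 and -1.69 without Cre 3. Between the highest and the lowest library Alb differed by a factor of 13.9.

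Transthyretin, the carrier of thyroxine and retinol-binding protein (Ttr), had 5.30, 7.13 and 18.2 CPM in flox and 3.95, 1.28 and 4.16 CPM in Cre libraries. The groups did not overlap, and the log2 fold change of -1.71 ± 0.62 had an edgeR adjusted p of 0.105, and without flox 3 it was -0.99. Fetuin-A (Ahsg), an inhibitor of mineral deposition, had 12.4, 21.4 and 36.8 CPM in flox and 11.8, 5.77 and 21.04 CPM in Cre libraries. Cre 3 was level with flox 2 there, and the fold change of -0.87 was -0.39 without flox 3. Transferrin (Trf), the iron carrier, was the steadiest of the secreted members, with 195, 324 and 232 CPM in flox and 267, 140.1 and 292 CPM in Cre libraries. It differed by a factor of 2.31 at most, and other liver cells are known to make it too. Retinol-binding protein (Rbp4) had 3.49, 6.81 and 22.2 CPM in flox and 12.5, 2.68 and 16.8 CPM in Cre libraries, with a log2 fold change of -0.02 ± 0.83. With Apoa1 these are the negative acute-phase members, and all 6 fold changes were below 0, with a median of -0.86 and 0 past the threshold. For Rbp4 and Trf that sign turned with library totals in place of TMM, which moved the median of all genes from 0.01 to 0.17.

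The positive acute-phase members leaned the other way, with 4 of 5 fold changes above 0, a median of 0.78 and 0 past the threshold. Without Cre 3 the values were smaller, 0.65 for Hp, 0.45 for Hpx, 0.19 for Fgb and -0.16 for Fga. Haptoglobin, the haemoglobin scavenger (Hp, chr8:109575128-109579172), had 645, 1302 and 1215 counts in flox and 2549, 982 and 4355 counts in Cre libraries. Cre 1 and Cre 3 were above every flox library, and Cre 2 lay between flox 1 and flox 3. The fold change was 1.20 ± 0.54 on the log2 scale (adjusted p = 0.171 by edgeR). Hemopexin, which binds free haem (Hpx, chr7:105591613-105600137), had 14.6, 33.1 and 66.8 CPM in flox and 88.0, 15.3 and 123 CPM in Cre libraries. Again Cre 1 and Cre 3 were the highest, and Cre 2 was near flox 1. The fold change was 0.98 ± 0.80 (edgeR adjusted p = 0.417).

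The fibrinogen chains, the precursor of the fibrin clot, did not move alike. Fgb (chr3:83040141-83049863) had 15.2, 43.7 and 31.3 CPM in flox and 55.6, 11.9 and 87.5 CPM in Cre libraries. Fga had 9.51, 27.2 and 20.0 CPM in flox and 25.3, 8.16 and 41.8 CPM in Cre libraries. Both were highest in Cre 3 and lowest in Cre 2. Fgg had 5.67, 11.3 and 9.35 CPM in flox and 5.71, 1.64 and 10.7 CPM in Cre libraries, with flox 2 highest. The log2 fold changes were 0.78 ± 0.70 for Fgb, 0.41 ± 0.61 for Fga and -0.55 ± 0.63 for Fgg, and all lay within the spread of the libraries. That of Fgg was -1.24 without Cre 3 and -0.08 without Cre 2.

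Of the other clotting proteins, prothrombin (F2) ranged from 1.57 CPM in Cre 2 to 14.2 CPM in flox 3. Plasminogen (Plg), whose active form dissolves fibrin, ranged from 1.35 to 6.29 CPM in the same libraries. Kininogen (Kng1), the source of bradykinin, ranged from 2.13 CPM in flox 1 to 12.1 CPM in flox 3. Their log2 fold changes were -0.66, -0.74 and -0.06, with 0 past the threshold, and without flox 3 they were 0.23, -0.23 and 0.64.

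Among the apolipoproteins, the protein parts of lipoproteins, Apob differed from the others. Apob, the backbone of very low density lipoprotein (chr12:7977648-8016835), had 12.5, 27.9 and 61.3 CPM in flox and 58.8, 12.2 and 78.3 CPM in Cre libraries. Cre 3 was highest, flox 3 and Cre 1 were close behind, and flox 1 and Cre 2 were alike. Its log2 fold change was 0.55 ± 0.76, with 0.08 without Cre 3 and 1.31 without flox 3. The other 4 had negative values: -0.84 for Apoa1, the main protein of high density lipoprotein, -1.47 for Apoa2, its second protein, -1.12 for Apoc3, an inhibitor of lipoprotein lipase, and -1.02 for Apoh, which binds phospholipid. All 4 were highest in flox 3 and lowest in Cre 2. Apoa2 had 2.47, 2.76 and 13.2 CPM in flox and 2.93, 0.459 and 3.28 CPM in Cre libraries. Without flox 3 the fold change of Apoh was 0.78 and that of Apoa2 -0.23, and without Cre 2 that of Apoc3 was -0.54 and that of Apoa1 -0.41.

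The protease inhibitors were the secreted members with the smallest p-values. Serpina3k, a serine protease inhibitor, had 8.93, 7.56 and 13.1 CPM in flox and 6.66, 3.14 and 4.33 CPM in Cre libraries. The groups did not overlap, and the log2 fold change was -1.07 ± 0.35 (edgeR adjusted p = 0.0835). Serpina1a, an alpha-1-antitrypsin gene, had 1.81, 4.48 and 7.56 CPM in flox and 1.95, 1.13 and 1.35 CPM in Cre libraries. Only flox 1 lay within the range of the Cre libraries, and the log2 fold change was -1.64 ± 0.55 (edgeR adjusted p = 0.0866), which was -1.08 without flox 3. DESeq2 gave both an adjusted p below its threshold, 0.0206 for Serpina3k and 0.0172 for Serpina1a. Both belong to families of near-identical copies, so these counts are uncertain.

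Gc, the vitamin D carrier, had 18.0, 30.01 and 69.4 CPM in flox and 38.4, 8.18 and 51.7 CPM in Cre libraries. Ambp, the precursor of alpha-1-microglobulin and bikunin, had 5.62, 11.3 and 28.6 CPM in flox and 18.6, 4.15 and 31.3 CPM in Cre libraries. For both, flox 3 and Cre 3 were the 2 highest and Cre 2 the lowest. Mup3, a pheromone carrier from a family of close copies, had 6.37 CPM in flox 3 and 1.38 to 2.08 CPM elsewhere, and its fold change of -1.05 was -0.18 without flox 3. Hnf4a, a transcription factor that maintains hepatocyte identity, had 1.10, 2.13 and 3.41 CPM in flox and 2.18, 0.965 and 2.89 CPM in Cre libraries. It followed the order of the secreted members at a far lower count, 40 to 137 per library.

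The 4 pericentral cytochromes were high in flox 3 alone. Cyp2e1, the ethanol-inducible cytochrome that also activates CCl4 (chr7:140763739-140774987), had 31, 72 and 1106 counts in flox and 137, 7 and 54 counts in Cre libraries. Flox 3 was 8.02 times the next library, Cre 1, and flox 1 and 2 lay within the Cre range. Cyp3a11, a drug-metabolising cytochrome (chr5:145854426-145879964), had 111, 88 and 1092 counts in flox and 101, 26 and 68 counts in Cre libraries, 9.32 times the next library in flox 3. Cyp1a2, which oxidises aromatic amines, had 35, 65 and 404 counts in flox and 21, 1 and 74 counts in Cre libraries. Cyp2c29, a cytochrome of the 2C family with close copies, had 48, 141 and 611 counts in flox and 34, 30 and 151 counts in Cre libraries. For both, Cre 3 was close to flox 2.

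The cytochromes' log2 fold changes ran from -2.76 ± 1.06 for Cyp3a11 and -2.63 ± 1.48 for Cyp2e1 to -2.44 ± 1.32 for Cyp1a2 and -1.96 ± 1.02 for Cyp2c29, with edgeR adjusted p-values of 0.119 to 0.252. Their summed level was 79.9 CPM in flox 3 and 1.54 to 10.5 CPM in the other 5 libraries. Without flox 3 the values were 0.19 for Cyp2e1, -0.76 for Cyp3a11, -0.82 for Cyp1a2 and -0.59 for Cyp2c29. Endothelial markers were in sum also highest in flox 3, with 5133 CPM over 7 of 7 detected genes against 1740 to 4138 CPM elsewhere. Stab2, the first marker of that list, was not, with 116, 130 and 101 CPM in flox 1, 2 and 3. It had 36.3, 84.0 and 34.0 CPM in Cre 1, 2 and 3. The part of endothelial cells in the cytochrome values was not tested.

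**Figure D3:**
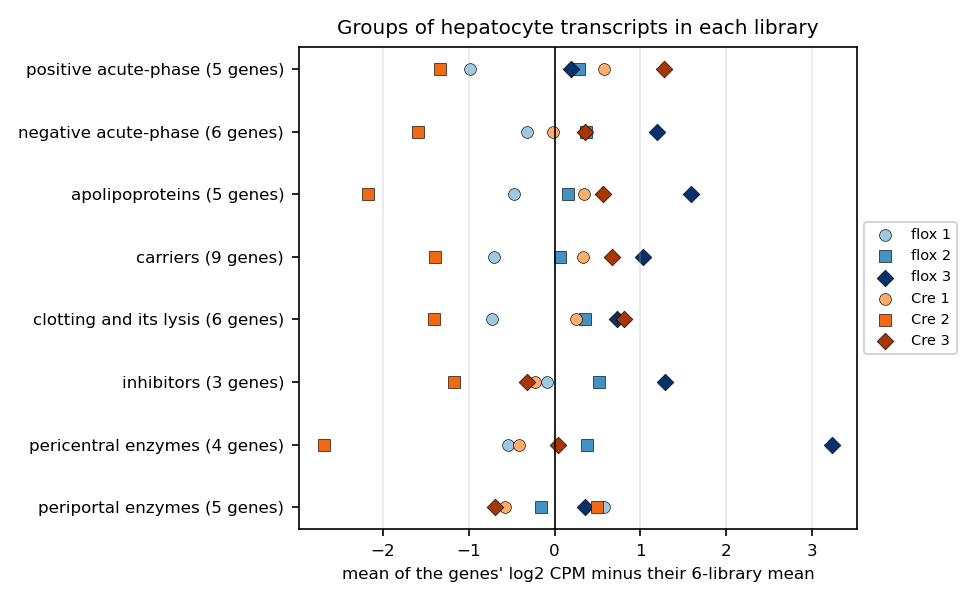
Mean over the genes of a group of log2 CPM minus the gene's mean over the 6 libraries, with 1 point per library. The pericentral enzymes have flox 3 at 3.23 and Cre 2 at -2.69, the positive acute-phase group has Cre 3 highest at 1.27, and the periportal enzymes lie between -0.69 and 0.58.

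Arginase and the other urea cycle enzymes were not highest in flox 3, and they shared no common order. Arg1, which splits arginine into urea and ornithine (chr10:24915221-24927484), had 13169, 17408 and 6066 counts in flox and 6402, 8390 and 5201 counts in Cre libraries. Flox 1 and flox 2 were highest, and flox 3 lay within the Cre range. The log2 fold change was -1.02 ± 0.42 (edgeR adjusted p = 0.136), and without flox 3 it was -1.37 with an edgeR adjusted p of 0.00819. Without flox 3, 5329 of 15296 genes passed the threshold. Arg1 is also a known gene of macrophages, whose markers were likewise highest in flox 1 and flox 2, with 18118 and 23021 CPM. The part of those cells in the Arg1 level was not tested. Ass1, which makes argininosuccinate and is found in many cells, had 23.3, 13.997 and 19.0 CPM in flox and 12.4, 19.8 and 29.2 CPM in Cre libraries, with no order by group. Cps1, which feeds ammonia into the cycle and is restricted in liver to hepatocytes, had 26, 10 and 13 counts in flox and 5, 17 and 10 counts in Cre libraries. Flox 3 was not high for Cps1.

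The remaining enzymes were near the limit of detection. Mat1a, which makes S-adenosylmethionine, had 36, 6 and 43 counts in flox and 72, 27 and 54 counts in Cre libraries, a log2 fold change of 0.78 ± 0.72 that was 0.33 without flox 2. Gnmt, which uses S-adenosylmethionine to methylate glycine, had 2, 9 and 36 counts in flox and 18, 0 and 6 counts in Cre libraries. Hpd, of tyrosine breakdown, had 1, 6 and 28 counts in flox and 5, 16 and 1 counts in Cre libraries. Gnmt and Hpd were highest in flox 3. Tat, the first enzyme of tyrosine breakdown, had 0, 0 and 9 counts in flox and 20, 8 and 20 counts in Cre libraries. A count of 0 in flox 1 and 2 allows up to 0.0788 and 0.0862 CPM for Tat, and flox 3 overlapped Cre 2. Cyp2f2, a periportal cytochrome, had 27, 0 and 6 counts in flox and 2, 11 and 0 counts in Cre libraries, so the largest count was in flox 1. Without flox 3 edgeR kept Tat in the test and called it higher in Cre. Both remaining flox libraries had 0 counts, so Tat passed the filter only through the Cre libraries. Only a higher call was then possible, and it is no support for a difference. In the fit without flox 3, 2 of 34 members passed the threshold, against 5329 of 15296 genes.

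Compared per length, with the deposited FPKM averaged over the 6 libraries, Arg1 was highest at 163, followed by Trf at 103 and Alb at 94.7. Hpx at 39.3, Hp at 35.2, Fgb at 24.3 and Gc at 20.0 came next. Alb alone ran from 17.5 FPKM in Cre 2 to 232 FPKM in flox 3, so the order among Arg1, Trf and Alb lay within that spread. At the low end were Mat1a and Gnmt at 0.290 and 0.287, Hpd at 0.173, Cyp2f2 at 0.105, Tat at 0.0764 and Cps1 at 0.0603 FPKM. Every one of the 23 secreted members had a mean FPKM above those 6 enzymes, the lowest being Plg at 1.15.

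Since the members' share of counts differed between libraries, members were also expressed as a percent of the Alb count of the same library. This description was added after the values had been seen. The ratios cover the 26 members besides Alb with at least 10 counts in every library. Of these, 11 were higher in every Cre than in every flox library, against 15.7% of all genes, and 0 were lower, against 0.237%. Dividing by Alb can remove spread that a member shares with Alb, but it adds the spread of Alb to genes that do not share it. The percents of all genes are therefore not a matched background for the members, and no excess of members is read from them. The 11 were Apob, Hp, Hpx, Fga, Fgb, Ambp, Rbp4, Hnf4a, Gc, F2 and Kng1. They hold 4 of the 5 positive acute-phase members, without Fgg, and also the negative acute-phase member Rbp4. Apob, Ambp, Hnf4a, Gc, F2 and Kng1 belong to neither group.

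Apob stood at 9.56%, 13.2% and 12.9% of Alb in flox 1, 2 and 3 and at 44.4%, 35.6% and 40.2% in Cre 1, 2 and 3. Cre 2, where the members' summed share of counts was lowest, was close to the other Cre libraries in this ratio. Flox 3, where that share was highest, was close to the other flox libraries. Hpx stood at 11.1%, 15.8% and 14.1% in flox and 66.4%, 44.7% and 63.0% in Cre libraries. Hp stood at 12.9%, 17.8% and 6.37% in flox and 48.1%, 69.4% and 54.7% in Cre libraries. For these 3 the lowest Cre library was 2.69, 2.83 and 2.71 times the highest flox library. Ambp stood at 4.29% to 6.02% in flox and 12.2% to 16.1% in Cre libraries, Fgb at 6.59% to 20.8% and 34.9% to 44.9%, and Gc at 13.7% to 14.6% and 23.96% to 29.0%.

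For the other 15 members the groups overlapped in this ratio. Ttr ran from 2.13% to 4.05% of Alb, Apoa1 from 2.11% to 4.38%, Apoa2 from 1.31% to 2.78% and Fgg from 1.97% to 5.47%. Of all 26, Ttr, F2, Apoa1, Gc, Apoa2 and Ahsg varied least between libraries in this ratio, by factors of 1.90 to 2.18, and Arg1 varied most, by 18.7, while Alb itself differed by 13.9. Cyp3a11 was 5.72% of Alb in flox 3 and 0.854% to 2.23% elsewhere, so its excess in flox 3 exceeded that of Alb. Arg1 ran from 31.8% of Alb in flox 3 to 593% in Cre 2.

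**Figure D4:**
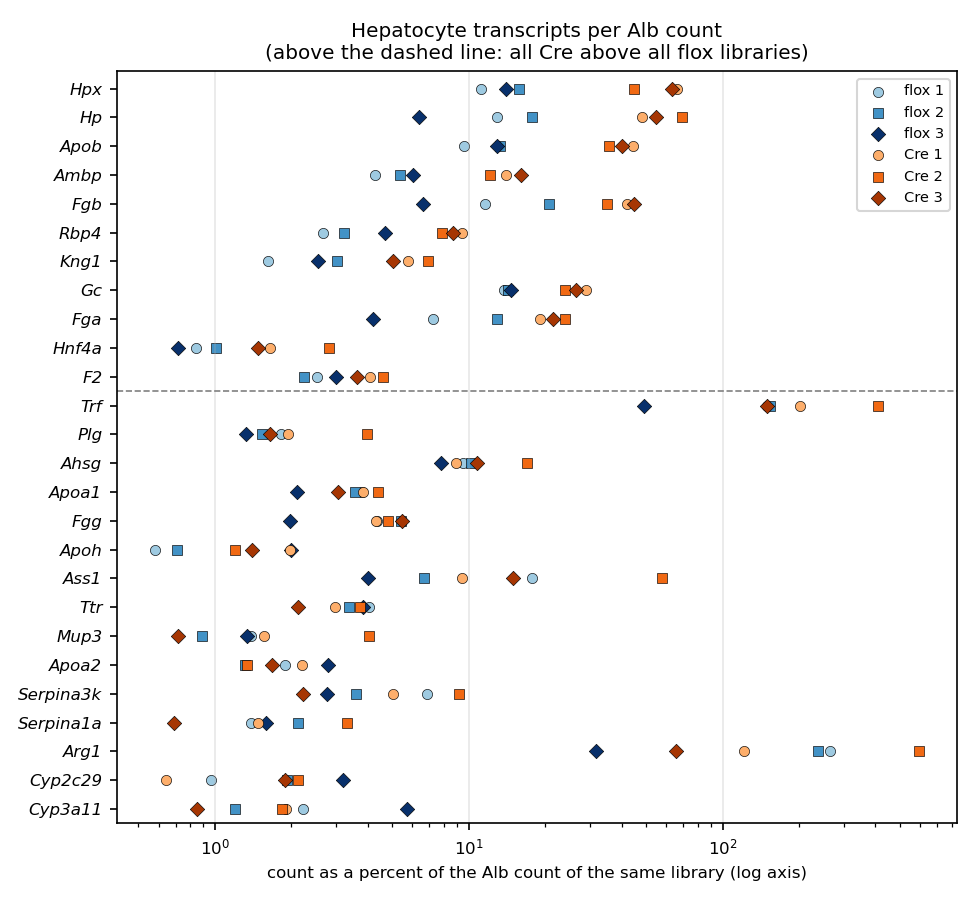
Count of each of 26 members as a percent of the Alb count of the same library, on a log axis, with 1 point per library. For the 11 genes above the dashed line the 3 orange Cre points lie to the right of the 3 blue flox points, and the gap is widest for Hpx, Hp and Apob.

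The ratio depends on the gene it is taken to. Per Ahsg count, 7 of 26 members were higher in every Cre library, against 11.3% of all genes, and all 7 were among the 11. Per Ttr count there were 14 of 26, against 63.2%, and they included all 11. As with Alb, these percents of all genes are not a matched background for the members. Alb, Ahsg and Ttr all belong to the negative acute-phase members, with edgeR log2 fold changes of -1.17, -0.87 and -1.71. Ratios to each are thereby raised in Cre libraries, and no reference outside that group was tried. The agreement between references is therefore no independent check. In an edgeR fit with Alb counts as library size, 0 members and 0 of all genes passed the threshold, and Hp had a log2 ratio of 2.21 ± 1.15 (edgeR adjusted p = 0.323). The all-gene median of this ratio was 1.55, since Alb itself was lower in Cre libraries, and only 4 of the 26 members lay above it.

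Further hepatocyte genes, from lists chosen by function, were read out of the same fit. Of 34 further secreted proteins 32 were tested, with a median log2 fold change of -0.61, and Apoc1 fell. Of 36 further enzymes 23 were tested, with a median of -0.89, and Cyp27a1 and Glul fell while Fah rose. Of 13 transcription factors 9 were tested, with a median of 0.66. Of these 8 had positive values, with 0 called higher, and only Cebpa had a negative value and fell. Of 8 surface proteins 5 were tested, with 0 past the threshold in edgeR and 0 at an unadjusted p below 0.05. Their sum was 0.941 to 8.16 CPM, and among those of lowest p were Asgr2, a subunit of the asialoglycoprotein receptor, and Slc2a2, a glucose transporter, with log2 fold changes of -1.20 and -0.51.

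The genes named here that fell were highest in flox 1 and flox 2, as were the macrophage markers, whereas Alb was highest in flox 3. Apoc1, an apolipoprotein that macrophages also make, had 86.8, 141 and 46.7 CPM in flox and 16.1, 5.38 and 10.96 CPM in Cre libraries, and its log2 change was -3.08 ± 0.54 (adjusted p = 0.0250 by edgeR). Cebpa, a transcription factor of hepatocytes and of myeloid cells, had 142, 169 and 46.6 CPM in flox and 21.5, 19.6 and 17.8 CPM in Cre libraries, a change of -2.60 ± 0.45 (edgeR adjusted p = 0.0250). In both, flox 1 and flox 2 were highest, as was Clec4f, a lectin of Kupffer cells, with 316, 389 and 195 CPM in flox and 60.7, 22.7 and 30.6 CPM in Cre libraries. Glul, glutamine synthetase, fell by 1.47 on the log2 scale and Cyp27a1, a sterol hydroxylase, fell by 2.21, both with flox 1 and flox 2 highest. Of the macrophage list 14 of 15 were called lower, against 8.94% of all genes. All 15 fold changes were negative, with a median of -2.98, and the part of macrophages in these 4 genes was not tested. Fah, the last enzyme of tyrosine breakdown, had 2.78, 1.78 and 2.39 CPM in flox and 6.73, 6.06 and 3.94 CPM in Cre libraries, a change of 1.26 ± 0.32 (edgeR adjusted p = 0.0436). The calls of Apoc1, Cebpa, Glul, Cyp27a1 and Fah were lost in edgeR without flox 1, flox 2, Cre 1 or Cre 2. In each of those fits 0 of all genes passed, so the loss is not particular to these genes. Without Cre 3, where 1369 of all genes passed, all but Fah were lost. With limma-voom Cyp27a1 and Fah did not pass.

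**Figure D5:**
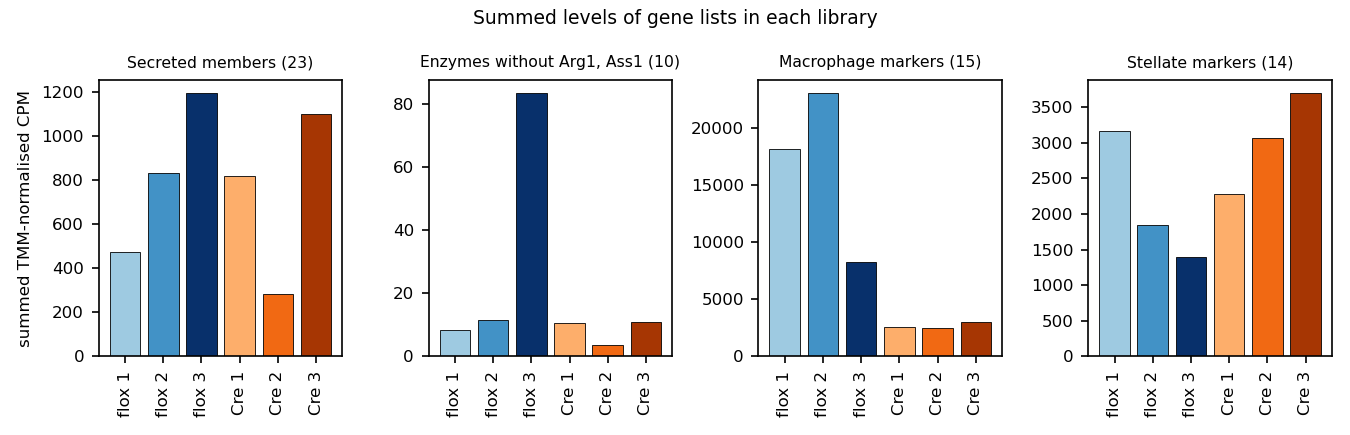
Summed TMM-normalised CPM per library of the 23 secreted members, the 10 enzymes other than Arg1 and Ass1, 15 macrophage markers and 14 stellate markers, each panel with its own axis from 0. The enzymes peak in flox 3 at 83.3 CPM, the secreted members peak in flox 3 (1196 CPM) and Cre 3 (1100 CPM), and macrophage markers are highest in flox 1 and flox 2.

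Of the 36 members, 8 have exons that overlap another gene in the GENCODE annotation. Serpina3k overlaps Serpina3m, Trf overlaps Gm20425 and Cyp2c29 overlaps the pseudogene Cyp2c53-ps on the same strand. On the opposite strand Apoh overlaps Prkca, Plg overlaps Slc22a3, Ahsg overlaps Gm30505, Fgg overlaps Gm30097 and Cyp2f2 overlaps Gm15883. Whether counting used strand is not known from the sources here, so reads of such pairs may be mixed.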

How the data were processed

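RNA was measured in 3 flox and 3 Cre libraries, grouped by title. The authors deposited raw counts per gene symbol and a table of FPKM, and 0 per-sample columns were left unused. The deposited FPKM equal count divided by library total and 1 length per gene (departures over 1e-06 were found for 0 of the 11560 genes above 50 counts throughout). GRCm38, mm10 and hg38 appear without a role in the submitters' processing notes. The aligner, counter, annotation and strand setting were not given in the sources used here.

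Counts were tested in R 4.3.3 with edgeR 4.0.16: genes kept by filterByExpr (minimum count 10, minimum total 15; 14795 kept, 8171 removed), TMM factors, the two-sided quasi-likelihood F-test without covariates, and Benjamini-Hochberg adjustment with a threshold of 0.05. Log2 fold changes are signed as Cre minus flox, and their standard error was derived from F. The code was tested on simulated data. An exact permutation test of 3 against 3 libraries cannot go below 0.1, so none is given. Ratios to Alb were computed on counts and, with their references Ahsg and Ttr, were added after seeing the data.

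The members, their groups and the further lists were chosen with earlier results of these data known. All 36 members are named; of each further hepatocyte list, the genes past the threshold or else the 3 of lowest p; of other cell types, list sums and first markers. Some genes that this rule names are not reported here. As alternatives, DESeq2 1.42.0, limma-voom (limma 3.58.1), RLE size factors and library totals were tried, with no count filter, 1 CPM in 3 libraries, a replicate block, each library left out, limma on log2(FPKM + 1) and log2(FPKM + 0.1), means of at least 1 FPKM, and a threshold of 0.1. On these log scales the changes of low genes are understated. Depth was 37273142 to 41006722 counts, a factor of 1.10, and floors of 3 counts cover counting error only. Gene positions are from GENCODE M21 and promoter windows from RefSeq, both GRCm38.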

Additional observations from a re-analysis of the deposited data

How the results depend on the processing

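The number of members past the threshold stayed at 0 under RLE size factors, library totals, limma-voom, both count filters, the replicate block and the 3 FPKM settings. It was 3 with DESeq2, and 2 with an adjusted p below 0.1 (Serpina1a and Serpina3k). With a library left out it was 0 to 2, the 2 being Arg1 and Tat without flox 3. Tat passed the count filter there only through the Cre libraries. Of all genes 2263 passed, 4334 with DESeq2, 1404 with limma-voom, 3986 below 0.1, 931 on log2(FPKM + 0.1) and 0 on log2(FPKM + 1), where 5778 had an unadjusted p below 0.05. With a library left out it was 0 to 5329: 5329 without flox 3, 1369 without Cre 3, and 0 without any of the other 4, where 3562 to 3978 had an unadjusted p below 0.05. With the replicate block in edgeR 0 genes passed and 4296 had an unadjusted p below 0.05, against 5150 without it. Same-numbered libraries deviated from their group means with correlations of -0.03, -0.10 and -0.06, so the numbers were not taken as pairs, and not every library correlated best with its own number.

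The median of the members, -0.73, kept its sign in every alternative, from -0.99 to -0.17 with a library left out. That of the secreted proteins ran from -0.99 to -0.15 and that of the enzymes from -1.27 to -0.67. The enzyme median was -0.14 on log2(FPKM + 1) and -0.51 on log2(FPKM + 0.1), where all 12 enzymes entered. Separate groups were found for 1 member with FPKM and 1 with library totals, against 3. Per Ahsg count, 7 in place of 11 members were higher in every Cre library.

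Signs of several fold changes turned, among them that of Cyp2e1, and the cause was not tested. With a library left out the values ran from -1.51 to 0.78 for Apoh, -0.27 to 0.19 for Trf, -0.16 to 0.85 for Fga, -0.40 to 1.10 for Ambp, -0.51 to 1.06 for Rbp4, -0.20 to 0.41 for Ass1, -3.76 to 0.19 for Cyp2e1, -0.48 to 0.32 for Hnf4a, -0.74 to 0.45 for Gc, -1.07 to 0.23 for F2 and -0.48 to 0.64 for Kng1. Library totals gave 0.061 for Trf, 0.083 for Rbp4 and 0.061 for Kng1. On log2(FPKM + 1) Trf was at 0.019, Rbp4 at 0.17, Hnf4a at 0.0019 and Kng1 at 0.095, with the same values for Trf, Rbp4 and Kng1 at a mean FPKM of at least 1. On log2(FPKM + 0.1) they were at 0.018, 0.19, 0.018 and 0.17. With limma-voom Kng1 was at 0.015 and Slc2a2 at 0.12. Depth limits Cyp2f2, Tat, Hpd, Gnmt and Cps1, at most 36 counts in a library.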
